A study of Mus musculus with 15 samples.

Results

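The genes described here are named for proteins of the mitochondrial ribosome, and their transcripts were measured in mouse uterus after an injection of an oestrogen. All array probes whose gene name began with Mrpl or Mrps and a number were taken, which gave 75 genes of the 27939 gene names on the array; 46 are named for the large subunit (Mrpl) and 29 for the small subunit (Mrps). The rule rests on gene names and on no measured value, but it was set with earlier results of these data known. Each gene was read from 1 probe, the brightest by its mean across the arrays, and all 75 passed the filter on dim probes, beside 20521 genes in all. The 75 probes were well above background on all 15 arrays, and none was saturated.

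Uteri came from ovariectomized CD-1 mice, an outbred strain whose own ovarian oestrogen had been removed in every group, vehicle included. The vehicle group received 100 µl of saline, and the other 4 groups received 250 ng of E2 or of E3 in 100 µl of saline, with the uterus collected at 2 h or at 24 h. E2 and E3 are read here by their usual meaning, estradiol and estriol; estriol differs from estradiol by an extra hydroxyl on the D ring. Each of the 5 groups had 3 arrays, labelled as triplicates; the sources used here do not say whether these were separate animals or pools, so p-values reflect only the spread among these arrays, which may be technical. Neither the age of the mice nor the time at which vehicle uteri were taken is given there, and the single vehicle group served as the control at both times. Whole uterus was profiled, so fewer cells of a type and less RNA per cell cannot be told apart.

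Mitochondria keep a small genome that encodes core subunits of the respiratory chain, and they translate its messenger RNAs on ribosomes of their own. The RNA of these ribosomes comes from mitochondrial DNA, whereas every protein of them is encoded in the nucleus, made in the cytosol and imported. Many of these proteins descend from bacterial ribosomal proteins and carry the matching number; those with higher numbers have no bacterial counterpart or were numbered later. In the ovariectomized rodent uterus an oestrogen injection first changes transcription and draws water into the tissue within hours, and then leads to growth and to division of the epithelium over the following day.

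Promoter stretches are given for 8 members whose levels are described in the paragraphs that follow: Mrpl45, Mrps11, Mrpl52, Mrpl12, Mrpl51, Mrpl20, Mrpl16 and Mrpl34. All 8 were called higher than in vehicle at 24 h after E2. At 2 h, Mrpl12, Mrpl51, Mrpl20 and Mrpl16 were called higher after both oestrogens, and Mrpl52 after E3 only. Mrpl34 was called lower at 2 h after both, and Mrpl45 and Mrps11 were not called at 2 h. Each is the 150 bases before the annotated start, 5′ to 3′ on the strand of the gene, from RefSeq (build GRCm38.p6). Capitals mark matches on either strand to letters bound by NRF1 (GCGCANGCGC), ETS factors such as GABPA (CCGGAAG), YY1 (GATGGCG) or E-box factors such as MYC (CACGTG), or to the TATA letters TATAAA; one factor's name stands before each sequence.
Mrpl45 (chr11:97315566-97315715, plus strand, NRF1): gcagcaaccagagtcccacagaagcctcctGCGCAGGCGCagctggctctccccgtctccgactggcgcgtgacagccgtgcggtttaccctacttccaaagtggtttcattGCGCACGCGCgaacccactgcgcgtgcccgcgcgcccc
Mrps11 (chr7:78782981-78783130, plus strand, YY1): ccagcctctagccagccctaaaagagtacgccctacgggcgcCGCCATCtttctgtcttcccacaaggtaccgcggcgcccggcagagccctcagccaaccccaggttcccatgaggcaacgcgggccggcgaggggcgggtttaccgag
Mrpl52 (chr14:54426759-54426908, plus strand, ETS): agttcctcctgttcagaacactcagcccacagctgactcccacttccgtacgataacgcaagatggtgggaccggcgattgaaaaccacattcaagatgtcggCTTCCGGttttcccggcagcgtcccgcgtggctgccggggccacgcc
Mrpl12 (chr11:120484487-120484636, plus strand, NRF1): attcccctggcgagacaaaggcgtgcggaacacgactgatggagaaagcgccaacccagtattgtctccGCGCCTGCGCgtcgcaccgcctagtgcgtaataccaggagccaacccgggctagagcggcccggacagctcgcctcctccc
Mrpl51 (chr6:125192050-125192199, plus strand, ETS): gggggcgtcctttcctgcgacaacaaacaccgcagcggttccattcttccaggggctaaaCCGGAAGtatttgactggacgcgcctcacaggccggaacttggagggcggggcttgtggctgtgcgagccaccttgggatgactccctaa
Mrpl20 (chr4:155802728-155802877, plus strand, E-box): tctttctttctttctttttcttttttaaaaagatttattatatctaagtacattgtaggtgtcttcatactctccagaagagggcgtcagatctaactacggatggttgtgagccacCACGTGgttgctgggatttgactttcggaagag
Mrpl16 (chr19:11770265-11770414, plus strand, TATA): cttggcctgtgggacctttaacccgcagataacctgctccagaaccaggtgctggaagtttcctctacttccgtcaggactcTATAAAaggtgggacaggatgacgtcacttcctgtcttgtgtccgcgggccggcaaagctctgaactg
Mrpl34 (chr8:71464776-71464925, plus strand, ETS): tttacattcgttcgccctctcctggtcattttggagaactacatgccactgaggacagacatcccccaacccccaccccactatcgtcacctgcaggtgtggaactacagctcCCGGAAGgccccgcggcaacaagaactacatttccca

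The same letters were counted in windows from 250 bases before to 50 bases after the start. A window was found for 66 of the 75 members (72 windows, since 3 members had more than 1) and for 17492 protein-coding genes; 9 members, among them Mrps28 and Mrpl54, had none in the table. The ETS letters were present in 24 of the 66 members, 36.4%, against 12.9% of the protein-coding genes. The NRF1 letters were present in 12, 18.2%, against 7.17%, and 3 members held both. The YY1 letters were present in 7, 10.6%, against 4.95%. E-box letters were found in 5 members, 7.58%, against 8.91%, and TATAAA in 5, 7.58%, against 14.8%. Of the 66 members, 26 held none of the NRF1, ETS, YY1 and E-box letters. The stretches shown above each held a marked match, so they do not represent the members as a whole. The full oestrogen response element, GGTCANNNTGACC, was in 0 of the 66 windows and in 0.0629% of the protein-coding genes. The matches to the ETS letters had a median position 22.5 bases before the start, and those to the NRF1 letters 38 bases before it. Of the 24 members with a window that were called higher at 2 h after E3, 9 (37.5%) held the ETS letters, as did 15 of the 42 other members (35.7%); for NRF1 these were 3 (12.5%) and 9 (21.4%). These are descriptions of letters, with no test, and a match is not a binding site.

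Levels are log2 of the deposited processed signal minus the array's own 75th percentile, so that a level of 0 is the 75th percentile and a difference of 1 is 2-fold; levels of different genes are not set against each other. The 75th percentile of the signal lay between 1053 and 1854 units, and 63.1 to 80% of the probes were well above background on an array. Arrays of 1 group correlated at 0.986 to 0.992 in 4 groups and at 0.962 to 0.974 in E3 24 h, whose replicate 3 stood apart on the third principal component at -89.3, with the other 14 arrays between -12.4 and 30.7. The 10 uterine markers, such as Esr1, Pgr and Hoxa10, were well above background in every group; their summed linear level was 338 to 449 in vehicle, 257 to 320 at 2 h after E2, 304 to 357 at 2 h after E3, 492 to 703 at 24 h after E2 and 563 to 634 at 24 h after E3. The 3 vehicle arrays shared a slide with no treated array, so slide and vehicle treatment cannot be told apart in the comparisons with vehicle. No slide held both E2 24 h and E3 24 h arrays, or both E2 2 h and E3 2 h arrays. The same was true of E3 2 h and E3 24 h, so these comparisons were also between slides. Calls rest on an adjusted p under 0.05 in limma, fitted to all 15 arrays, with Benjamini-Hochberg adjustment over the 20521 genes; every adjusted p given here is of that kind.

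At 24 h after E2, 72 of the 75 members were higher than in vehicle and 0 were lower, by a median of 0.71 on the log2 scale or 1.63-fold. Among all genes tested, 21% were called higher and 22.6% lower in that comparison, and their median change was -0.02. The changes of the members ranged from 0.05 to 1.30, all 75 being above 0, and 12 of the rises reached 2-fold. All 3 E2 24 h arrays lay above all 3 vehicle arrays for 74 members, against 27% of all genes, and below them for 0, against 29.2%. No member fell at an unadjusted p under 0.05 either, and 73 were higher at that level. The median change of the 75 members was 0.76, 0.77 and 0.60 in the 3 E2 24 h arrays, against -0.05 to 0.07 in the vehicle arrays.

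**Figure D1:**
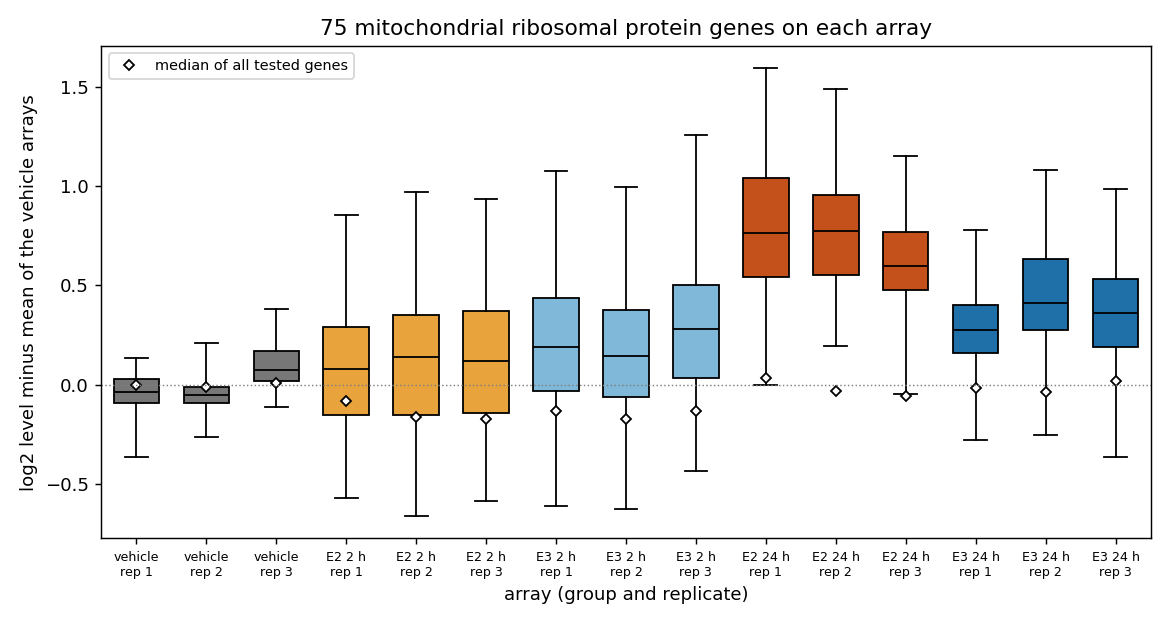
Change of the 75 genes from their vehicle mean (log2) on each of the 15 arrays, by group; boxes give the quartiles, whiskers the lowest and highest gene, and diamonds the median of all genes tested. The medians are 0.60 to 0.77 on the E2 24 h arrays, above those at 2 h (0.08 to 0.28). They are 0.28 to 0.41 on the E3 24 h arrays. The lowest of these, 0.276 on replicate 1, lies just below the highest at 2 h, 0.280 on E3 2 h replicate 3.

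Mrps28, a small-subunit protein with a higher number, had levels of 2.77, 2.83 and 3.13 in vehicle and of 4.47, 4.22 and 3.96 at 24 h after E2. The 2 groups did not overlap, and the rise was 1.30 ± 0.148 (SE, n = 3 arrays per group), 2.47-fold, with an adjusted p of 5.4e-05. Mrpl54, a large-subunit protein, went from 1.78, 1.81 and 2.11 to 3.50, 3.39 and 2.73, with the third E2 24 h array well below the other 2 and still above vehicle. Its rise was 1.30 ± 0.236 (2.47-fold, adjusted p = 9.75e-04). Mrps11, on the platform of the small subunit, had levels of -0.13, -0.26 and 0.00 in vehicle and of 1.12, 1.07 and 1.02 after E2, close together within each group. It rose by 1.20 ± 0.141, 2.30-fold, with an adjusted p of 6.75e-05.

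Mrpl45 helps to hold the ribosome at the inner mitochondrial membrane, where its products are inserted; its promoter stretch holds 2 matches to the NRF1 letters. Its levels were 1.65, 1.45 and 1.77 in vehicle and 3.00, 2.86 and 2.60 at 24 h after E2, with no overlap. The rise was 1.20 ± 0.124 (2.29-fold, adjusted p = 3.28e-05). Mrpl35 had levels of 1.59, 1.51 and 1.75 in vehicle and of 3.00, 2.77 and 2.61 after E2, again with no overlap, and rose by 1.18 ± 0.118 (2.26-fold, adjusted p = 2.88e-05). Mrpl52 went from 3.60, 3.63 and 3.85 to 4.88, 4.98 and 4.64, with no overlap, a rise of 1.14 ± 0.107 (2.20-fold, adjusted p = 2.07e-05). Besides Mrpl12, described next, the other rises of 2-fold or more, named after their values were seen, were those of Mrpl20 (2.20-fold), Mrpl2 (2.15-fold), Mrpl17 (2.10-fold), Mrpl49 (2.07-fold) and Mrpl51 (2.00-fold, adjusted p = 1.66e-05). A dimmer probe of Mrpl52 was lower after E2, by -0.44, and with the mean of its probes the change was 0.24 and not called (adjusted p = 0.305).

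The proteins of the stalk, the arm that receives translation factors, were among the members that rose. Mrpl12, the stalk protein itself, which has also been found with the mitochondrial RNA polymerase, had levels of 2.94, 2.88 and 3.16 in vehicle and of 4.30, 3.99 and 3.99 at 24 h after E2. The groups were separate, and the rise was 1.10 ± 0.145 (2.15-fold, adjusted p = 1.35e-04). Mrpl11, at the base of the stalk, rose by 0.87, and Mrpl10, which anchors Mrpl12, rose by 0.43 (adjusted p = 0.00526). In the small subunit, Mrps12, at the decoding centre, rose by 0.76, and Mrps5 rose by 0.67. Mrps16 and Mrps22, both mutated in inherited defects of the respiratory chain, rose by 0.80 and 0.99. The 3 genes related to the bacterial protein S18, Mrps18a, Mrps18b and Mrps18c, rose by 0.68, 0.59 and 0.76, and Mrpl3 rose by 0.59. With the mean of a gene's probes, Mrpl3 (0.21) and Mrps5 (0.22) were no longer called and Mrps18b was at -0.13, its other, dimmer probes being lower after E2.

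The 3 members not called after E2 at 24 h were Mrpl9, Mrps6 and Mrpl24, which are named because they are the exceptions, after their values were seen. Mrpl9 was 0.40 above vehicle (adjusted p = 0.0508), and Mrps6 was 0.27 above (adjusted p = 0.119). Mrpl24, at the exit of the tunnel for the new chain, had levels of 3.43, 3.24 and 3.34 in vehicle and of 3.34, 3.53 and 3.29 after E2. These groups overlapped, with a difference of 0.05 (adjusted p = 0.717). Every array left out in turn gave between 67 members higher, without E2 24 h replicate 1, and 71, with 0 lower.

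**Figure D2:**
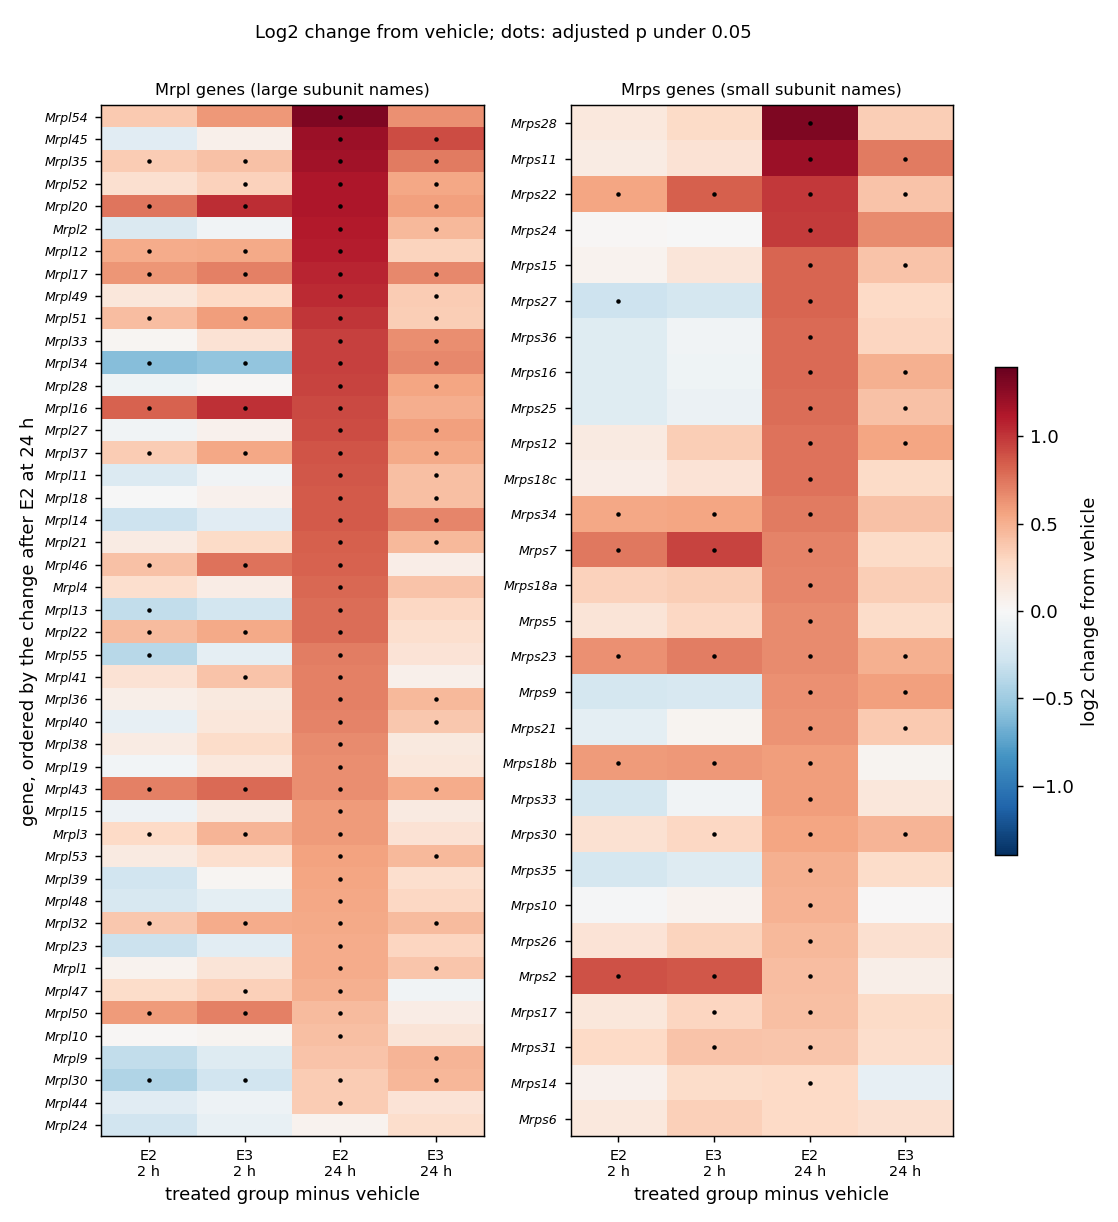
Mean change from vehicle (log2, colour) of each of the 75 genes in the 4 oestrogen groups, n = 3 arrays each. Rows are split by Mrpl and Mrps names and ordered by the change at 24 h after E2, and dots mark an adjusted p under 0.05. Rises are called for 72 genes at 24 h after E2 and for 35 at 24 h after E3, while at 2 h a minority of rows is called, in both directions.

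At 24 h after E3, 35 members were higher than in vehicle and 0 were lower, beside 9.67% of all genes higher and 10.8% lower. The median change was 0.37 (1.29-fold), against -0.01 over all genes, and the range was from -0.12 for Mrps14 to 0.91 for Mrpl45, with 73 members above 0. All 3 arrays lay above all 3 vehicle arrays for 53 members (16.9% of all genes) and below them for 0 (19.3%). At an unadjusted p under 0.05, 52 members were higher and 0 lower. The arrays had member medians of 0.28, 0.41 and 0.36, and 68, 73 and 68 of the 75 members lay above their vehicle mean on them.

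The number called after E3 depended on the arrays in the fit. In a limma fit to the vehicle and E3 24 h arrays alone, 0 members passed (smallest adjusted p = 0.0728), with 38 higher at an unadjusted p under 0.05; in that fit 1 gene of the whole array passed. The count was 13 without vehicle replicate 1, 15 without vehicle replicate 2, 20 without E3 24 h replicate 2 and 26 without E3 24 h replicate 3, the array that stood apart.

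Mrpl45 had the largest rise after E3, from the vehicle levels given for it to 2.40, 2.64 and 2.57. It rose by 0.91 ± 0.124, 1.88-fold, with an adjusted p of 0.00249 and no overlap with vehicle. Mrpl35 reached 2.37, 2.40 and 2.27, a rise of 0.73 (adjusted p = 0.00434), and Mrps11 reached 0.46, 0.74 and 0.59, a rise of 0.72 (adjusted p = 0.00764); both groups lay wholly above vehicle. Mrpl14, at the interface of the subunits, had a mean level of 4.28 ± 0.153 (SD, n = 3) in vehicle and of 4.96 ± 0.0466 after E3, with no overlap, and rose by 0.68 (adjusted p = 0.00532). Mrpl17 rose by 0.67 (adjusted p = 0.0195), a call that was lost with the mean of its probes, at 0.03. Mrpl34 rose by 0.67 (adjusted p = 0.00687).

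Members that stood high after E2 were not all called after E3. Mrps28 had levels of 3.04, 3.29 and 3.44 at 24 h after E3, which overlapped vehicle, with a difference of 0.35 (adjusted p = 0.113). Mrpl12 was at 3.08, 3.57 and 3.26, overlapping vehicle, with a difference of 0.31 (adjusted p = 0.143). Mrpl54 spread from 2.06 to 2.99 with a difference of 0.64 (adjusted p = 0.072). Of the other named genes, Mrpl11 (0.42), Mrps12 (0.56), Mrps16 (0.49) and Mrps22 (0.40) rose, with adjusted p-values of 0.027 to 0.0474. Mrpl3 (0.20), Mrpl10 (0.18), Mrps5 (0.26), Mrps7 (0.27), Mrps18a (0.35), Mrps18b (0.04) and Mrps18c (0.27) were not called.

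E2 and E3 were given at the same dose, and at 24 h the difference between them was itself tested: 33 members were higher after E2 than after E3 and 0 were lower, beside 8.88% and 6.74% of all genes. The median difference was 0.38 (1.30-fold), against -0.02 over all genes, and 72 of the 75 differences were above 0; the 3 below were Mrpl24 (-0.20), Mrpl30 (-0.11) and Mrpl9 (-0.08), none of them called and named after their values were seen. All 3 E2 arrays lay above all 3 E3 arrays for 47 members (14.8% of all genes) and below them for 0 (13.7%). At an unadjusted p under 0.05 the counts were 52 and 0.

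Mrps28 showed the largest difference between the oestrogens, with its 3 E2 arrays (4.47, 4.22 and 3.96) wholly above its 3 E3 arrays (3.04, 3.29 and 3.44). The difference was 0.96 ± 0.148, 1.94-fold, with a 95% interval of 0.64 to 1.28 and an adjusted p of 0.00147. Mrpl12 was higher after E2 by 0.79 ± 0.145 (1.73-fold, adjusted p = 0.00423), and again no E3 array reached the lowest E2 array. Mrpl46 had levels of 1.38, 1.34 and 0.92 after E2 and of 0.41, 0.39 and 0.65 after E3, the latter close to its 0.31, 0.40 and 0.46 in vehicle. The difference was 0.73 ± 0.128 (adjusted p = 0.00304). Mrpl49 was at 2.55, 2.59 and 2.39 after E2 and at 1.79, 1.84 and 1.80 after E3, a difference of 0.70 (adjusted p = 0.00161) with no overlap. Mrpl51 differed by 0.66 (adjusted p = 7.64e-04) and Mrpl2, which lies near the peptidyl transferase centre, by 0.65 (adjusted p = 0.012).

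Some genes were on a fixed list of names, set with earlier results of these data known. Of these, Mrpl3 (0.40), Mrpl11 (0.45), Mrps5 (0.41), Mrps18c (0.49) and Mrps22 (0.59) were higher after E2 than after E3. Mrps7 (0.42), Mrps18b (0.54), Mrpl10 (0.24), Mrps12 (0.21), Mrps16 (0.30) and Mrps18a (0.33) did not pass, which does not show that the oestrogens acted alike on them. Mrpl45, the leading member after E3, differed by 0.28 with an interval of 0.01 to 0.55 (adjusted p = 0.146). For 71 of the 75 members the whole 95% interval of the difference lay within 2-fold in either direction.

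A limma fit to the 6 arrays at 24 h alone called 0 members (smallest adjusted p = 0.0598; 36 higher at an unadjusted p under 0.05). With slide as a fixed term over the treated arrays the count was 0 as well, with 9 at an unadjusted p under 0.05, and no slide held arrays of both groups. The count was 18 without E2 24 h replicate 1 and 22 without E3 24 h replicate 3.

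**Figure D3:**
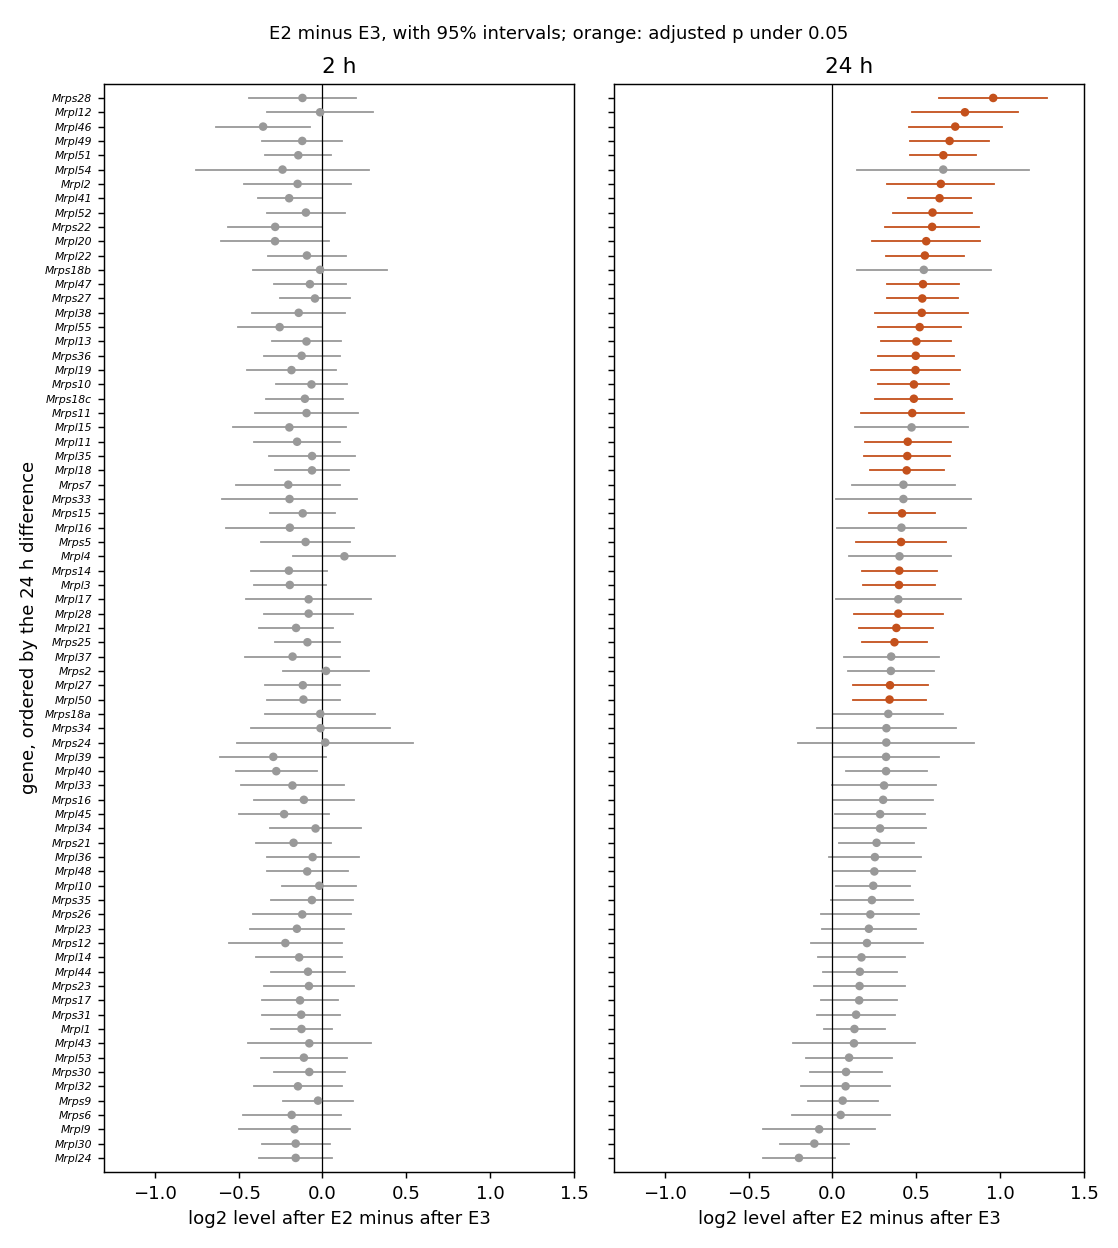
Difference between E2 and E3 (log2, E2 minus E3) for each of the 75 genes at 2 h and at 24 h, with 95% intervals from the fit to 15 arrays and called genes in orange. At 24 h 33 genes are called and 72 lie above 0; at 2 h 0 are called and 3 lie above 0.

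At 2 h some members were called higher and a few lower, and the number lower depended on the scale. After E2, 19 (25.3%) were higher and 5 lower than in vehicle, beside 15.5% and 23.1% of all genes. After E3, 25 (33.3%) were higher and 2 lower, beside 16.5% and 23.6%. Quantile normalization gave 12 lower after E2 and 10 after E3, and the array median as the scale gave 0 lower after either and 43 higher after E3. The member medians were 0.11 after E2 and 0.21 after E3, against -0.14 and -0.16 over all genes. All 3 arrays lay above all 3 vehicle arrays for 28 members after E2 (21.6% of all genes) and 37 after E3 (21.3%), and below them for 17 (33.9%) and 7 (34.2%). The number higher after E2 was 12 without vehicle replicate 1, 11 without vehicle replicate 2 and 12 without E2 2 h replicate 2.

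Mrps2, a small-subunit protein, had levels of -0.32, -0.32 and -0.21 in vehicle. They were 0.57, 0.61 and 0.65 at 2 h after E2, 0.58, 0.52 and 0.66 at 2 h after E3, 0.08, 0.14 and 0.23 at 24 h after E2, and -0.35, 0.09 and -0.32 at 24 h after E3. Both 2 h groups lay above every vehicle and 24 h array, and the E3 24 h arrays overlapped vehicle. Its rise at 2 h was 0.89 ± 0.118 after E2 (1.86-fold, adjusted p = 9.37e-05) and 0.87 ± 0.118 after E3 (1.83-fold, adjusted p = 1.06e-04), and with the mean of its probes the change after E3 was 0.36 (adjusted p = 0.0561).

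Mrpl16, which lies by the tRNA sites of the large subunit, had levels of 1.30, 1.63 and 1.32 in vehicle, 2.12, 2.38 and 2.23 at 2 h after E2, and 2.24, 2.40 and 2.67 at 2 h after E3. Neither group overlapped vehicle, and the rises were 0.83 ± 0.176 (adjusted p = 0.00268) and 1.02 ± 0.176 (2.03-fold, adjusted p = 6.25e-04). Mrpl20 went from 3.21, 3.13 and 3.38 in vehicle to 4.02, 3.93 and 4.03 after E2 and to 4.31, 4.14 and 4.37 after E3. The groups were separate, with rises of 0.75 (adjusted p = 0.00162) and 1.04 (2.05-fold, adjusted p = 1.65e-04). Mrps7, in the head of the small subunit, had levels of 1.21, 1.33 and 1.59 in vehicle, 2.14, 2.21 and 2.00 after E2, and 2.19, 2.37 and 2.40 after E3. It rose by 0.74 (adjusted p = 0.00138) and 0.94 (adjusted p = 2.4e-04), with no overlap. At 24 h after E2, Mrpl16 was 0.92 above vehicle (adjusted p = 0.00135) and Mrps7 was 0.70 above it (adjusted p = 0.00202). Mrpl43 rose by 0.71 and 0.79, Mrps23 by 0.64 and 0.72, Mrps22 by 0.56 and 0.84, and Mrpl12 by 0.52 and 0.53, after E2 and E3 in that order.

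The other genes on the fixed list of names, apart from Mrps18b, differed less at 2 h. Mrpl3 rose by 0.28 after E2 and 0.47 after E3, and Mrps18b by 0.59 and 0.61. A dim second probe of Mrps18b was at -0.56 at 2 h after E2, and the mean of the probes was at -0.17. Mrpl10 (0.02 and 0.04), Mrpl11 (-0.20 and -0.05), Mrps12 (0.12 and 0.34), Mrps5 (0.18 and 0.28), Mrps16 (-0.17 and -0.06), Mrps18a (0.33 and 0.34) and Mrps18c (0.09 and 0.19) did not pass.

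Mrpl34 had the largest fall at 2 h after both oestrogens. Its levels were 1.60, 1.49 and 1.81 in vehicle, 1.08, 0.97 and 1.04 at 2 h after E2 and 1.02, 1.01 and 1.20 at 2 h after E3, wholly below vehicle; at 24 h they were 2.45, 2.75 and 2.56 after E2 and 2.16, 2.50 and 2.24 after E3, wholly above it. At 2 h it fell by 0.60 after E2 (adjusted p = 0.0025) and fell by 0.56 after E3 (adjusted p = 0.00382). Mrpl30 fell by 0.42 and 0.26, and after E2 Mrpl55 fell by 0.38, Mrpl13 fell by 0.35 and Mrps27 fell by 0.29. The 5 falls after E2 became 3 without vehicle replicate 3 or without E2 2 h replicate 2, and the 2 after E3 became 1 without vehicle replicate 3 or without E3 2 h replicate 2. None of these falls was called when each array was scaled by its median rather than its 75th percentile: Mrpl34 was then at -0.42 (adjusted p = 0.0504) after E2 and -0.32 (adjusted p = 0.124) after E3. On that scale the split of all genes at 2 h was 4247 higher and 3146 lower after E2, against 3183 and 4738, and 4912 and 2962 after E3, against 3393 and 4848. Under each of 4 scalings (75th percentile, quantile, array median and normexp background), 17 members stayed called higher after E2 and 20 after E3.

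**Figure D4:**
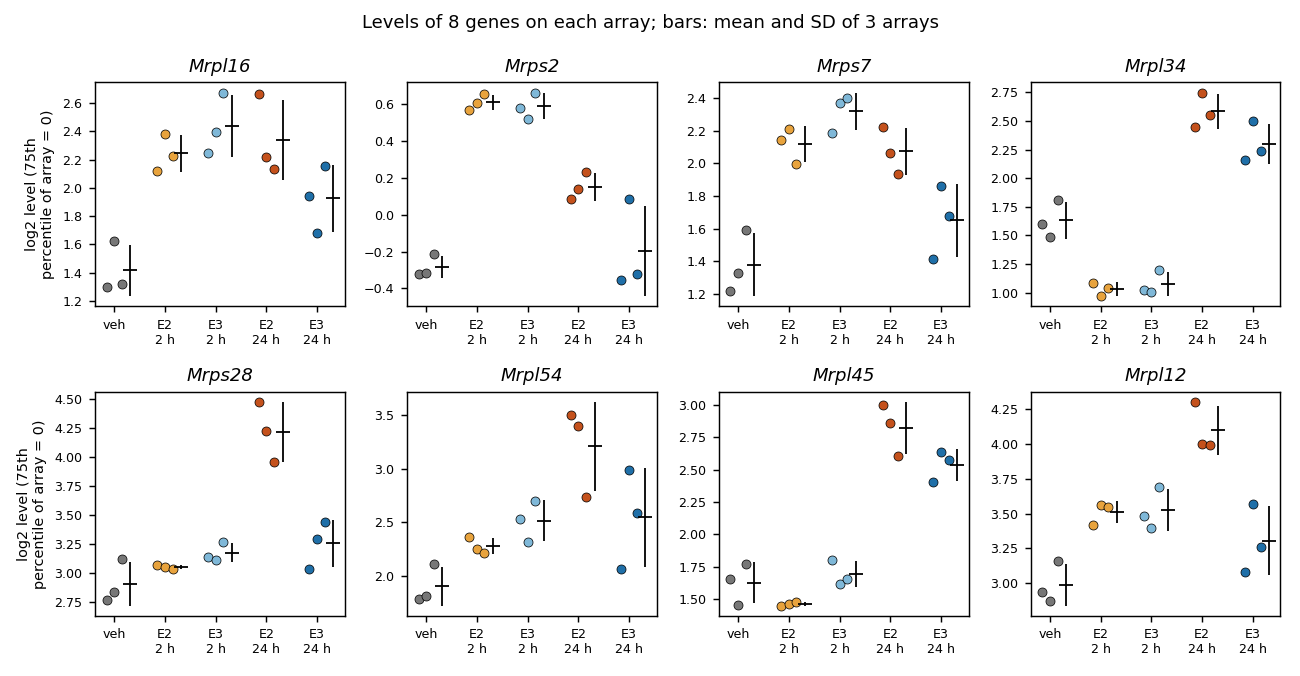
Level (log2 signal relative to the array's 75th percentile) of 8 of the genes on each array, by group; points are arrays, and bars give the mean and SD of 3 arrays. Mrpl16, Mrps2 and Mrps7 are higher than in vehicle at 2 h and also at 24 h after E2, and of these only Mrps2 was called lower at 24 h than at 2 h after E2. Mrpl34 is lower at 2 h and higher at 24 h, and Mrps28, Mrpl54, Mrpl45 and Mrpl12 are highest at 24 h after E2.

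Between E2 and E3 at 2 h, 0 members were called in either direction, beside 0% of all genes higher and 0% lower; at an unadjusted p under 0.05, 0 were higher and 5 lower after E2. The differences ranged from -0.35 to 0.13 with a median of -0.12, against 0.00 over all genes, and 3 of the 75 were above 0. These 3 were Mrpl4 (0.13), Mrps2 (0.02) and Mrps24 (0.02), and the lowest were Mrpl46 (-0.35), Mrpl39 (-0.29) and Mrpl20 (-0.28). For Mrpl46 the 95% interval was -0.63 to -0.08. All 75 intervals lay within 2-fold in either direction, the lowest bound being -0.75 and the highest 0.54, which leaves room for smaller differences between E2 and E3. All 3 E2 arrays lay below all 3 E3 arrays for 26 members (6.76% of all genes) and above them for 0 (5.95%).

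From 2 h to 24 h, 59 members were higher and 1 was lower after E2, beside 30.4% and 21.9% of all genes, with a median change of 0.64 against 0.12. The 1 that fell was Mrps2, by 0.46 (adjusted p = 0.00585), named after its values were seen. After E3, 28 were higher and 14 lower, beside 29.8% and 19.9% of all genes, with a median of 0.18, the same as over all genes. Mrpl34 had the largest rise between the times with each oestrogen, 1.55 after E2 and 1.23 after E3. After E3, Mrps2 fell by 0.78 (adjusted p = 2.01e-04), Mrps7 fell by 0.67 and Mrpl46 fell by 0.67. Mrpl50 fell by 0.60, Mrps18b fell by 0.57 and Mrpl16 fell by 0.51. These genes are named after their values were seen, and the share of members lower was near that of all genes. The 14 became 7 without E3 2 h replicate 3, 8 without E3 24 h replicate 1 and 9 without E3 24 h replicate 3, and 28 and 14 became 15 and 5 in a fit to the 6 arrays alone and 0 and 0 when slide was a term of the fit to treated arrays.

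The change in the difference between E2 and E3 from 2 h to 24 h was tested as an interaction. It was above 0 and called for 25 members and below 0 for 0, beside 3.79% and 2.37% of all genes, with a median of 0.51 against -0.03 over all genes. The highest values were 1.09 for Mrpl46 (adjusted p = 0.00783) and 1.08 for Mrps28 (adjusted p = 0.015), and Mrpl51 was at 0.81 (adjusted p = 0.00606). Mrpl46 shows the pattern on the arrays: at 2 h its levels were 0.74, 0.81 and 0.86 after E2 and 1.21, 1.18 and 1.07 after E3, and at 24 h the E2 arrays were the higher ones. This count was the most dependent on single arrays, ranging from 5 without E3 2 h replicate 3 to 31, with 6 without E2 2 h replicate 1, 7 without E2 2 h replicate 3, 6 without E2 24 h replicate 1, 7 without E2 24 h replicate 2 and 8 without E3 24 h replicate 3. It was 12, 14 and 13 without E2 2 h replicate 2, E3 2 h replicate 1 and E3 2 h replicate 2, and 9 in a fit to the 12 treated arrays alone. With slide as a term in a fit to treated arrays it was 0, with scan day as a block 1, and on scan day 1 alone 3.

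Members named for each subunit were called. Among genes with Mrpl names 44 of 46 were higher at 24 h after E2, and among those with Mrps names 28 of 29, with medians of 0.79 and 0.67. After E3 at 24 h these were 25 and 10, with medians of 0.41 and 0.30. Between E2 and E3 at 24 h they were 22 and 11, with medians of 0.39 and 0.35. Among all genes, 21% were higher at 24 h after E2, 9.67% at 24 h after E3 and 8.88% in E2 against E3 at 24 h. Of the 28 Mrpl genes numbered up to 36, the numbers shared with bacteria, 26 were higher at 24 h after E2, as were 18 of the 18 with a higher number. For the Mrps genes, 15 of 16 numbered up to 21 and 13 of 13 above were higher. The classes were not tested against each other. Sorting by name is only a stand-in for the subunit that holds the protein, and sorting by number for descent from bacteria.

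5 further proteins of the mitochondrial ribosome have other names: Dap3, Aurkaip1, Chchd1, Gadd45gip1 and Ict1, the last a peptidyl-tRNA hydrolase built into the large subunit. Of these 5, 4 were higher and 0 lower at 24 h after E2, beside 21% and 22.6% of all genes. The rises were 1.12 for Gadd45gip1, 0.94 for Chchd1, 0.83 for Ict1 and 0.65 for Dap3. After E3 at that time 3 were higher, beside 9.67% of all genes. Chchd1 was higher after E2 than after E3 (0.53, adjusted p = 0.00762).

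Of 17 factors that help build the mitochondrial ribosome, 3 were higher and 7 lower at 2 h after E2, beside 15.5% and 23.1% of all genes, and 3 and 6 after E3, beside 16.5% and 23.6%. Their counts at 24 h were 5 and 1 after E2, beside 21% and 22.6%, and 0 and 1 after E3, beside 9.67% and 10.8%; the share higher at 2 h was thus near that of all genes. Ftsj2, an rRNA methyltransferase, fell by 1.33 at 2 h after E2 and fell by 1.05 after E3. Tfb1m, which methylates the small-subunit rRNA, fell by 1.08 at 2 h after E2. Mtg1, a GTPase of large-subunit assembly, fell by 0.66 at 2 h after E2 and rose by 0.73 at 24 h after E2. C1qbp, a matrix protein needed for mitochondrial translation, rose by 0.81 at 2 h and by 0.92 at 24 h after E2, and was higher after E2 than after E3 at 24 h by 0.67.

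Of 13 translation factors, 2 were higher and 5 lower at 2 h after either oestrogen, with the share higher near the 15.5% and 16.5% of all genes. They were 8 and 0 at 24 h after E2, beside 21% and 22.6% of all genes, and 4 and 0 at 24 h after E3, beside 9.67% and 10.8%. Guf1, a GTPase of the elongation factor family, fell by 0.99 at 2 h after E2 and fell by 0.91 after E3. The elongation factors Tufm and Gfm1 rose by 1.02 and 0.80 at 24 h after E2, and Lrpprc, which stabilises mitochondrial messenger RNA, by 0.60. Between the oestrogens at 24 h, Tsfm (0.82, adjusted p = 0.00464), Gfm1 (0.68) and Lrpprc (0.50) were higher after E2. Of 8 genes of mitochondrial DNA transcription and replication, 2 were higher and 0 lower at 24 h after E2, beside 21% and 22.6% of all genes. The share higher was thus near that of all genes. The 2 were Top1mt (0.88) and Polrmt (0.40), while at 2 h Polg2 fell by 1.56 after E2 and fell by 1.39 after E3.

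Of 12 regulators of nuclear genes for mitochondria, 3 were higher and 1 lower at 2 h after E2 (15.5% and 23.1% of all genes) and 4 and 1 after E3 (16.5% and 23.6%). The coactivator Ppargc1a fell by 2.31 and 2.35 at 2 h, whereas its relative Pprc1 rose by 1.94 and 2.00 and Myc by 0.95 and 1.01, after E2 and E3 in that order. At 24 h the counts were 1 higher and 6 lower after E2 (21% and 22.6%) and 1 and 2 after E3 (9.67% and 10.8%). Nrf1, whose motif letters were counted in the promoters, rose by 0.33 at 2 h after E2, fell by 0.56 at 24 h after E2 and fell by 0.55 at 24 h after E3. Yy1 fell by 0.62 at 24 h after E2, and Esrra rose by 0.56 and 0.48 at 24 h after E2 and E3.

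Nuclear genes for subunits of oxidative phosphorylation, whose complexes also hold the products of mitochondrial translation, were also called: of 75 tested, 68 were higher and 1 lower at 24 h after E2 (median 0.90) and 56 and 0 after E3 (median 0.55). At 2 h they were 5 and 3 after E2 and 9 and 3 after E3, with medians of -0.02 and 0.07, and between E2 and E3 at 24 h they were 32 and 0, with a median of 0.37. The 88 gene names of the cytosolic ribosome pattern (10 of them Rps6k kinases) gave 25 higher and 2 lower at 24 h after E2 (median 0.29), 22 and 2 after E3 (median 0.36), and 4 and 0 between E2 and E3 (median -0.07). At 2 h they gave 6 and 1 after E2 and 5 and 0 after E3. Among all genes, 21% were higher and 22.6% lower at 24 h after E2, and 9.67% and 10.8% after E3. Between E2 and E3 at 24 h they were 8.88% and 6.74%. At 2 h they were 15.5% and 23.1% after E2 and 16.5% and 23.6% after E3. The shares higher of both lists at 2 h lay below these, as did that of the cytosolic names between E2 and E3. No list was tested against another.

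**Figure D5:**
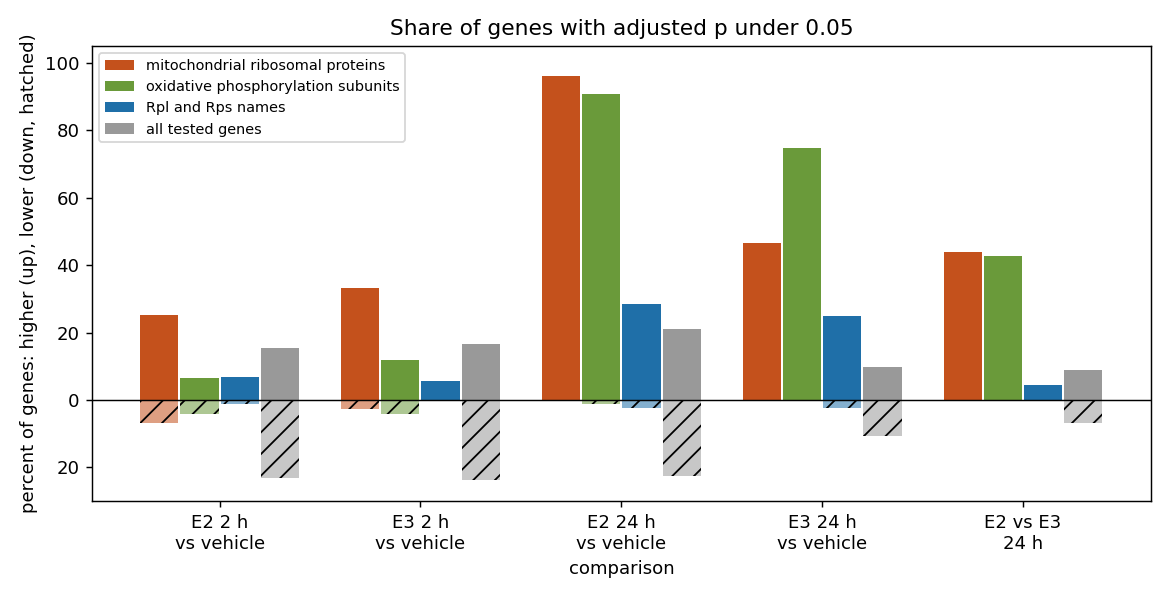
Percent of genes called higher (bars up) and lower (hatched bars down) in 5 comparisons, for the 75 mitochondrial ribosomal protein genes, 75 oxidative phosphorylation genes, 88 names of the cytosolic ribosome pattern and all 20521 genes tested; bars start at 0. At 24 h after E2 the counts higher are 72, 68 and 25 of the 3 lists, against 21% of all genes.

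Markers of dividing cells and of other cells moved in the same groups, and their part in the changes of the members was not tested. The 3 cell cycle markers rose at 24 h after E2 (Mki67 by 1.76, Ccnb1 by 2.47, Top2a by 1.93), 2 of 3 rose at 24 h after E3, and all 3 were higher after E2 than after E3; their summed linear level was 2.4 to 3.29 in vehicle, 7.91 to 10.8 at 24 h after E2 and 3.49 to 7.16 at 24 h after E3. Of 4 red cell markers, 3 were higher at 2 h after E2, 2 at 2 h after E3 and 3 at 24 h after either, with summed levels of 31.9 to 49.2 in vehicle and of 55.1 to 117 over the oestrogen groups. The 3 macrophage markers tested were higher at 24 h after E3 (summed 8.09 to 16.4, against 5.41 to 5.83 in vehicle and 4.29 to 4.95 at 24 h after E2). Of 3 lymphocyte markers, 2 were lower at 2 h after each oestrogen (summed 0.074 to 0.156 after E2 and 0.078 to 0.124 after E3, against 0.173 to 0.598 in vehicle), and the sum was 0.0853 to 0.161 at 24 h after E2, also wholly below vehicle, and 0.123 to 0.667 at 24 h after E3. The summed level of the adipocyte markers ranged from 6.04 to 170 over the arrays, and of 4 skeletal muscle markers 1, Acta1, was higher at 24 h after E2 (summed 16.9 to 25.5, against 5.8 to 9.16 in vehicle).

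Within the arrays scanned on the first of 3 days, the member medians were 0.71 at 24 h after E2, with 75 above 0, 0.33 at 24 h after E3, with 69 above 0, and 0.36 for E2 minus E3 at 24 h, with 73 above 0. At 2 h they were 0.10 after E2 and 0.23 after E3. Of the 75 members, 33 had more than 1 probe, and 47 of the 50 probes not used were well above background in at least 1 group. For called members, the probe not used had the same sign as the used one in 12 of 13 cases at 2 h after E2 and 16 of 18 at 2 h after E3. The same held in 32 of 46 at 24 h after E2, 13 of 23 at 24 h after E3 and 20 of 24 between E2 and E3 at 24 h.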

How the data were processed

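RNA from 15 uterus samples was labelled with Cy3 (500 ng of total RNA each) and read on one-colour Agilent arrays. The authors deposited intensity values: processed signals from Feature Extraction, version 9.5.3.1 per the file headers (9.5 per the submitters' processing notes), on a linear scale, with background subtracted and not normalized between arrays. The value table of the series equalled these signals (largest relative difference 0). Each array held 45018 spots; repeated spots of 41174 non-control probes were averaged, flagged spots left out, and 53 probes without a value on some array dropped. From the deposited intensities, log2 was taken and each array's 75th percentile subtracted. A gene was its brightest probe by mean, tested where at least 1 group had it well above background on its 3 arrays. limma 3.58.1 (R 4.3.3, with files read by data.table, version 1.17.8) fitted 1 mean per group to 15 arrays, with 10 residual degrees of freedom; 9 comparisons were made, each adjusted by Benjamini-Hochberg. The fit was tested on simulated data. Arrays give no counts, so their number limits the precision. Gene names are the array's; 73 of the 75 probes carried a RefSeq transcript accession, all with the same current symbol. Probe positions are on mm7 and were not used. Named genes were the 6 largest rises and falls among called members with non-overlapping arrays in each comparison with vehicle and in E2 against E3 at 24 h, the 3 highest and 3 lowest in E2 against E3 at 2 h, and Mrpl12, Mrpl3, Mrpl11, Mrps12, Mrps5, Mrps7, Mrps16, Mrps22, Mrpl10 and the Mrps18 genes; Mrpl58 was not matched under that name. Of each other list at most 4 genes are named in a comparison, by smallest p. Members, lists and this rule were chosen with earlier results of these data known. Alternatives were other scalings, background, filter, probe rule, variance settings, array weights, blocks by replicate number, slide (6) and scan day (3), and each array left out.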

Additional observations from a re-analysis of the deposited data

Results flagged for a closer look

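The effect of the oestrogens differed between E2 and E3 at 24 h by a test of the difference itself: 33 members were higher after E2 and 0 lower in limma at an adjusted p under 0.05, beside 8.88% and 6.74% of all genes; the 33 became 0 in a fit to the 6 arrays alone and 0 when slide was a fixed block. The difference between E2 and E3 also differed between the 2 times by the interaction term, for 25 members, all with the larger E2 minus E3 difference at 24 h, beside 3.79% of all genes in that direction and 2.37% in the other; the 25 became 0 with slide as a fixed block, 1 with scan day as a block, and 5 to 31 with an array left out.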

How the results depend on the processing

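Over all alternatives, the median change of the members stayed within 1 SD in 157 cases and moved further in 7; of single named members, 1533 values kept direction and side of the threshold, 156 lost the call, 15 gained it and 2 reversed. The number higher at 24 h after E2 stayed within 1.5 times 72 under every alternative run, with 1 lower after quantile normalization. The lower members at 2 h after E2 numbered 12 (quantile), 0 (array median) and 8 (mean of a gene's probes). At 2 h after E3, 43 were higher by the array median, and the lower ones numbered 10 (quantile), 0 (array median), 4 (mean of probes) and 1 (no filter on dim probes, the groups compared alone, the replicate block, slide as a random block). At 24 h after E3 the higher members numbered 19 (quantile), 23 (mean of probes), 0 (groups alone), 23 (scan day as a block) and 18 (scan day 1 alone). Between E2 and E3 at 24 h they numbered 0 both with the groups alone and with slide as a fixed block. From 2 h to 24 h after E2, 3 were lower by the mean of probes. From 2 h to 24 h after E3, 14 were higher by the array median, 15 with the groups alone, 0 with slide as a fixed block and 18 on scan day 1, and 5 (groups alone) and 0 (slide as a fixed block) were lower. For the interaction, 14 (quantile), 7 (no filter), 9 (groups alone), 12 (replicate block), 12 (slide as a random block), 0 (slide as a fixed block), 1 (scan day as a block) and 3 (scan day 1) were called. Mrps18b reversed with the mean of its probes, to -0.17 at 2 h and -0.13 at 24 h after E2. Leaving out each array in turn gave 11 to 17 higher and 3 to 6 lower at 2 h after E2, 18 to 26 and 1 to 2 at 2 h after E3, 67 to 71 higher at 24 h after E2, 13 to 37 at 24 h after E3, 18 to 39 between E2 and E3 at 24 h, 53 to 62 from 2 h to 24 h after E2, 20 to 28 and 7 to 14 from 2 h to 24 h after E3, and 5 to 31 for the interaction. The array median moved the median of all genes to 0.20 at 24 h after E2 and 0.14 at 24 h after E3; relative to all genes the members were 0.73 higher at 24 h after E2 on the main scale, 0.52 by quantiles and 0.66 with normexp background. By the array median, 6218 genes were higher and 3087 lower at 24 h after E2 (4305 and 4635 in the main scale), 3028 and 1348 at 24 h after E3 (1985 and 2214), and 2037 and 981 between E2 and E3 at 24 h (1823 and 1384). Same-numbered arrays of different groups correlated at -0.223 to 0.204, and 5 of 15 arrays were closest to their own number. This gave no sign of pairing by number and cannot exclude it. Apart from the counts given for it, the replicate block left counts within 1.5 times. Where no cause is shown by the setting itself, the cause was not tested.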
